A study of Homo sapiens with 18 samples.

Results

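SYK and its close relative ZAP70, 5 members of the Src kinase family (SRC, LYN, FYN, YES1 and LCK), the kinase CSK that acts on them, and the related non-receptor tyrosine kinases PTK2 and PTK6 were followed through SYK knockdown in 3 lung cancer cell lines. The 10 genes were taken by symbol from the tables of the 3 cell lines, which list 58302 genes, and each symbol matched 1 gene. RNA was sequenced from EBC-1 cells, which have MET amplification, and from PC-9 and HCC827 cells, which have an EGFR exon 19 deletion. In each cell line, cells with a lentiviral shRNA against SYK (shSYK) were set beside cells with a negative control (nc), whose construct is not described in the labels. There were 3 libraries in each of the 6 groups and 18 in all. A single shRNA clone was used, so an effect of losing SYK and another effect of this shRNA cannot be told apart. The labels do not say that the replicates were separate cultures, and p-values measure the spread between these libraries, which may be technical.

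These kinases are not receptors themselves and pass on signals from receptors at the cell surface. Src family kinases are anchored to the inner face of membranes, while SYK, ZAP70, CSK, PTK2 and PTK6 lie in the cytoplasm until they are recruited. In immune cells, a Src family kinase (LCK in T cells, LYN in B cells) phosphorylates the paired tyrosines of a receptor tail called an ITAM, and SYK or ZAP70 then docks there through its SH2 domains and is activated. CSK phosphorylates the tail tyrosine of Src family kinases and so holds them in a closed, inactive form. In epithelial cells SRC, YES1 and FYN act with PTK2, the focal adhesion kinase FAK, at integrin contacts, and PTK6, also called BRK, is a kinase of epithelial linings. The question here is how the mRNA of these partners stood in each cell line and what happened to it when SYK was knocked down.

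Between 7920099 and 15729103 reads per library lay on genes. Levels are FPKM, fragments scaled by gene length and by library, and so can be compared between genes. The PC-9 nc libraries spread the most: replicates 1 and 2 differed by 38.66 in chi-square per degree of freedom, against 2.11 to 14.31 for the other replicate pairs. The 5 epithelial markers EPCAM, CDH1, KRT8, KRT18 and KRT19 summed to between 1137 and 4683 FPKM per library. The 8 markers of blood and immune cells, among which ZAP70 and LCK are best known, summed to between 0.298 and 5.996 FPKM. Of the T cell markers, CD3D and CD2 had no read in any library and CD3E reached at most 0.085 FPKM. ITGAM, on the same list, lay between 2.71 and 3.39 FPKM in the PC-9 libraries. Genes were called changed at a Benjamini-Hochberg adjusted p under 0.05 in limma on log2(FPKM + 1), among genes with a mean of at least 1 FPKM in the cell line. Changes are given as log2 fold changes of FPKM + 1, which understate the change of low genes.

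SYK itself (ENSG00000165025, chr9:90801787-90898549 on the plus strand in the hg38 coordinates of the tables) was highest in EBC-1 and fell in all 3 cell lines. In EBC-1 it stood at 15.1, 13.1 and 14.4 FPKM in the nc libraries and at 7.63, 7.25 and 7.41 FPKM in the shSYK libraries. In PC-9 the nc libraries had 7.31, 6.04 and 6.17 FPKM and the shSYK libraries 2.28, 1.64 and 2.34 FPKM. In HCC827 the values were 9.05, 8.45 and 9.74 FPKM in nc and 2.46, 3.16 and 3.36 FPKM in shSYK. No shSYK library reached the lowest nc library of its cell line. The knockdown left 52.3% of the nc level to EBC-1, 32.1% to PC-9 and 32.9% to HCC827. The log2 fold change was -0.85 (SE 0.074, limma adjusted p = 0.000271) in EBC-1. In PC-9 it was -1.29 (SE 0.13, adjusted p = 0.00733) and in HCC827 -1.34 (SE 0.0996, adjusted p = 0.000197). The PC-9 call was not kept in every subset: with nc replicate 3 left out the log2 fold change was -1.32 with an adjusted p of 0.0513, and with shSYK replicate 1 left out it was -1.33 with an adjusted p of 0.0638. In bulk RNA, fewer cells carrying the knockdown and less RNA in each cell cannot be told apart. Because of the different starting levels, SYK in shSYK EBC-1 cells (7.43 ± 0.189 FPKM, SD, n = 3) lay above the nc mean of PC-9 (6.51 ± 0.698, n = 3). The fall of SYK was smaller in EBC-1 than in HCC827 by 0.49 on the log2 scale (SE 0.15, adjusted p = 0.0278), and this call was lost without the filter on low genes (adjusted p = 0.0581) and when any of EBC-1 nc replicate 2, EBC-1 shSYK replicates 1 and 3, HCC827 nc replicates 1 and 3 and HCC827 shSYK replicate 1 was left out (adjusted p between 0.0504 and 0.0774). Between EBC-1 and PC-9 the difference was 0.44 (SE 0.15, adjusted p = 0.0516), and it passed the threshold under 9 of 26 alternatives (adjusted p between 0.00146 and 0.126).

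ZAP70, which does the work of SYK in T cells, had 1 read in each of 2 libraries, EBC-1 nc replicate 3 and EBC-1 shSYK replicate 1, and none in the other 16. It was under the floor of 3 reads everywhere and was not tested, so SYK was the only one of the pair with measurable mRNA in these cells, before and after knockdown.

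**Figure D1:**
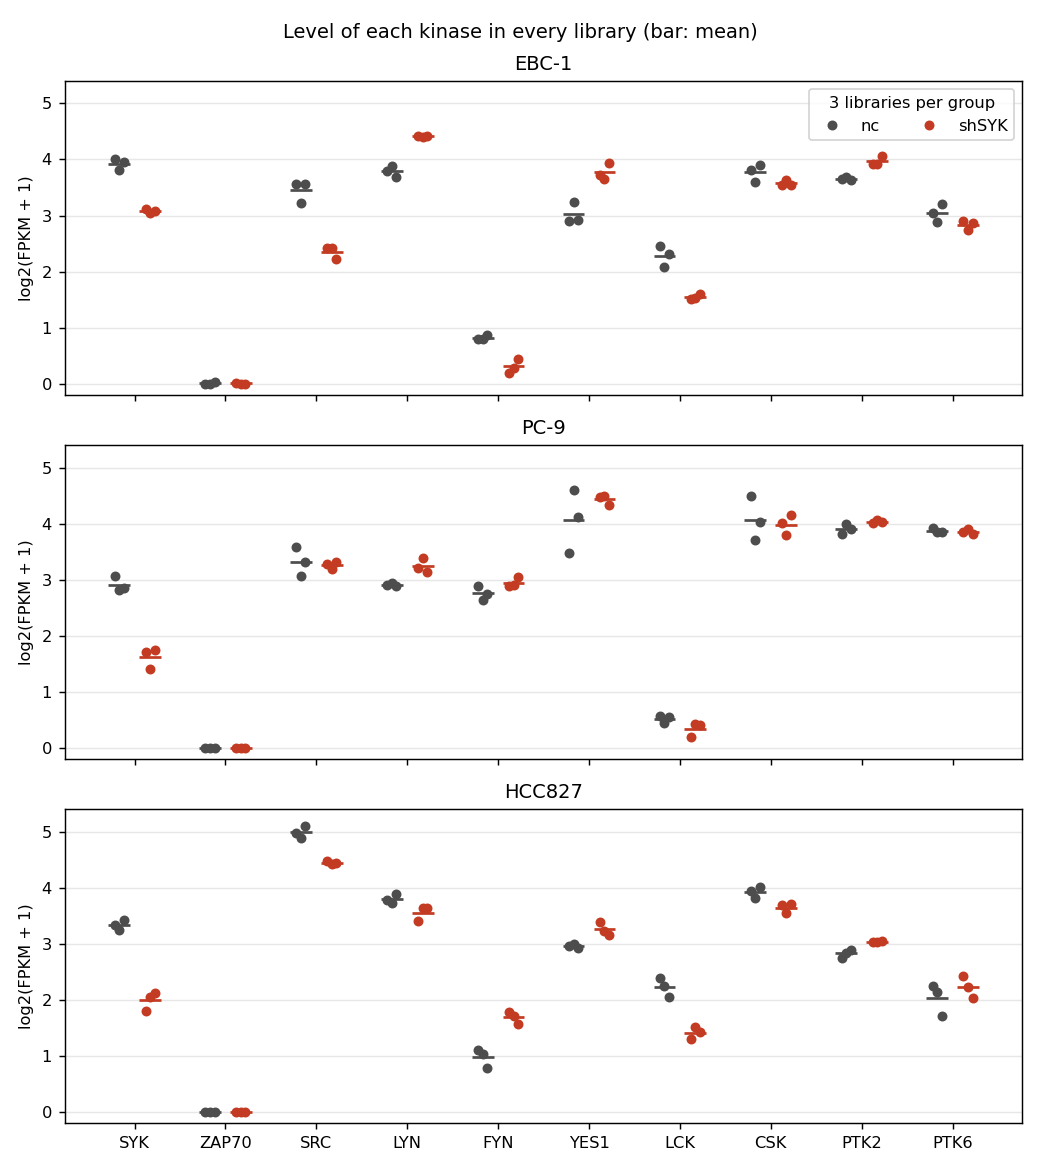
Level of each kinase in every library as log2(FPKM + 1), with nc in grey and shSYK in red, 3 points and a bar at their mean per group, and a panel per cell line. SYK points lie lower in shSYK in all 3 panels, while SRC and LCK are apart in EBC-1 and HCC827 and ZAP70 lies at 0.

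All of the kinases but ZAP70 were tested in at least 1 cell line. In EBC-1, 8 members were tested and 6 were called, with LYN, YES1 and PTK2 higher and SYK, SRC and LCK lower in shSYK. Of all 12430 genes tested in EBC-1, 44.7% were called, 23.1% higher and 21.6% lower. In PC-9, 8 were tested and SYK alone was called, beside 2.09% of 12089 genes, 0.678% higher and 1.41% lower. These 253 calls became 624 without nc replicate 1, 500 without nc replicate 2 and between 8 and 20 when any other library was left out. In HCC827, 9 were tested and 7 were called, with FYN, YES1 and PTK2 higher and SYK, SRC, LCK and CSK lower, beside 38.0% of 11999 genes, 17.2% higher and 20.7% lower. FYN passed the filter there through its shSYK libraries, with an nc mean of 0.968 FPKM. With so many genes called in EBC-1 and HCC827, a call by itself sets a kinase little apart there. The median log2 fold change of the tested members was -0.20 in EBC-1 beside 0.0090 over all genes tested, 0.052 in PC-9 beside 0.0088, and -0.24 in HCC827 beside -0.0053. These medians, and the counts of called members, include SYK, whose fall is the aim of the shRNA. With SYK left out, the HCC827 median would lie between -0.24 (LYN) and 0.20 (PTK6). When the FPKM of each library were scaled to an equal sum (TPM), the median of all genes in EBC-1 rose to 0.13 and the calls there became 4001 higher and 1891 lower, against 2876 and 2686 with the values as deposited. The direction of every called member was the same on both scales.

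**Figure D2:**
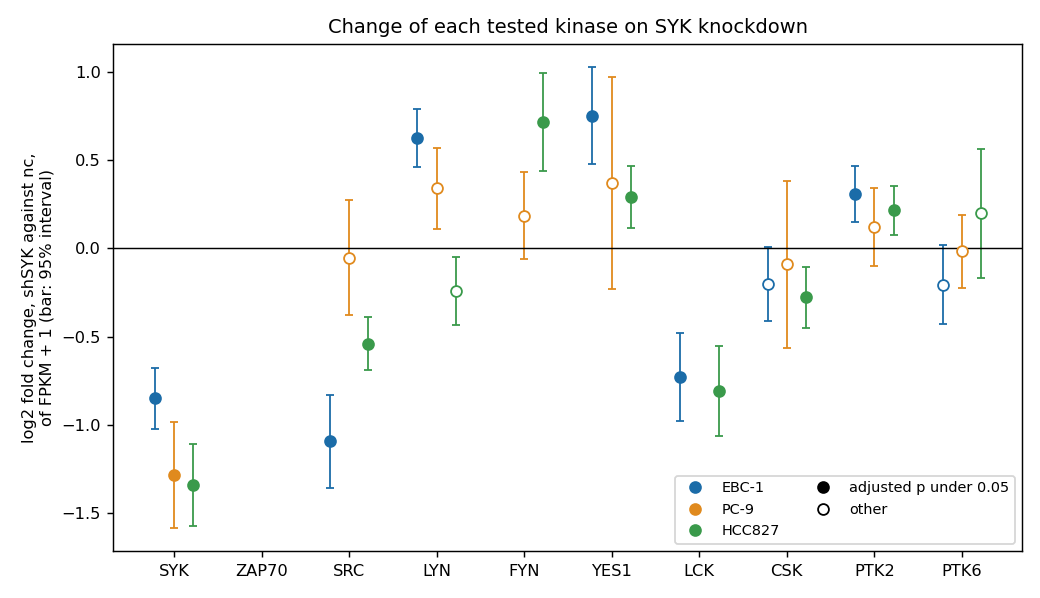
Log2 fold change of FPKM + 1, shSYK against nc, for each kinase tested in EBC-1 (blue), PC-9 (orange) and HCC827 (green), with bars for the 95% interval from limma and filled points for an adjusted p under 0.05. ZAP70 has no point, and FYN in EBC-1 and LCK in PC-9 were under the filter. LYN lies above 0 in EBC-1 and below 0 in HCC827, and FYN is above 0 in HCC827.

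SRC, the founding member of the family (ENSG00000197122, chr20:37344685-37406050, plus strand), was the most abundant of these kinases in HCC827 and fell in 2 of the 3 cell lines. In HCC827 nc it stood at 30.5, 28.6 and 33.1 FPKM, and in shSYK at 21.3, 20.3 and 20.7 FPKM. In EBC-1 it was 10.8, 8.32 and 10.7 FPKM in nc and 4.37, 4.34 and 3.65 FPKM in shSYK. The groups were apart in both, and in EBC-1 SRC kept 41.3% of its nc level, a smaller share than SYK itself (52.3%). The log2 fold change was -1.09 (SE 0.11, limma adjusted p = 0.0005) in EBC-1 and -0.54 (SE 0.065, adjusted p = 0.00104) in HCC827. In PC-9 the nc libraries held 10.99, 7.37 and 8.94 FPKM and the shSYK libraries 8.76, 8.16 and 8.97 FPKM. These overlapped, with a log2 fold change of -0.054 (95% interval -0.38 to 0.27, adjusted p = 0.911). Without nc replicate 1, the highest for SRC, it was 0.078 (adjusted p = 0.681). The response of SRC in EBC-1 was below that in PC-9 by 1.04 (SE 0.17, adjusted p = 0.000458) and below that in HCC827 by 0.55 (SE 0.17, adjusted p = 0.0259), and the difference from HCC827 was lost without the filter (adjusted p = 0.0578) and when any of EBC-1 nc replicates 1 and 3, EBC-1 shSYK replicate 3, HCC827 nc replicates 1 and 2 and HCC827 shSYK replicate 1 was left out (adjusted p between 0.0501 and 0.0703). Between PC-9 and HCC827 it was 0.49 (SE 0.17, adjusted p = 0.093), and 0.62 (adjusted p = 0.00948) without PC-9 nc replicate 1.

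LYN, the Src family kinase that starts B cell receptor signalling and also restrains it, went up in EBC-1. It rose from 12.8, 13.8 and 11.95 FPKM in nc to 20.5, 20.1 and 20.3 FPKM in shSYK. The log2 fold change was 0.62 (SE 0.071, limma adjusted p = 0.000706). HCC827 began at a like level, with 12.7, 12.2 and 13.8 FPKM in nc, and its shSYK libraries lay at 9.55, 11.4 and 11.4 FPKM. PC-9 had less in nc, 6.45, 6.68 and 6.34 FPKM, and 8.23, 9.43 and 7.82 FPKM in shSYK. In both of these lines the groups did not overlap, but the changes did not pass the threshold in the fit of the line alone, with a log2 fold change of -0.24 in HCC827 (SE 0.083, adjusted p = 0.0535) and 0.34 in PC-9 (SE 0.099, adjusted p = 0.151). The fit of all 18 libraries called both (adjusted p = 0.0402 and 0.014), as did removing length and GC trends (0.0376 and 0.0428), and a filter at 5 FPKM called LYN in HCC827 (0.038). The differences between cell lines were called: LYN in EBC-1 was above HCC827 by 0.86 (SE 0.12, adjusted p = 6.23e-05), and PC-9 was above HCC827 by 0.58 (SE 0.12, adjusted p = 0.0047).

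YES1, a broadly expressed Src family kinase (ENSG00000176105, chr18:721588-812546, minus strand), rose in EBC-1 and HCC827. In EBC-1 it went from 6.43, 8.47 and 6.58 FPKM in nc to 12.3, 11.5 and 14.3 FPKM in shSYK, 177% of the nc mean (log2 fold change 0.75, SE 0.12, limma adjusted p = 0.00242). In HCC827 it went from 6.81, 6.98 and 6.62 FPKM to 9.50, 8.33 and 7.86 FPKM (log2 fold change 0.29, SE 0.074, adjusted p = 0.0191). Every shSYK library lay above every nc library in both lines. PC-9 had the most YES1, and its nc libraries were far apart, at 10.1, 23.2 and 16.4 FPKM, with 21.1, 21.6 and 19.1 FPKM in shSYK. The lowest of these is nc replicate 1, and the change there was 0.37 (95% interval -0.23 to 0.97, adjusted p = 0.559) with it and 0.073 (adjusted p = 0.788) without it. Without nc replicate 2, the highest, it was 0.64 (adjusted p = 0.0939). The HCC827 call was lost without nc replicate 1 (adjusted p = 0.0512), without nc replicate 3 (0.0531), without the filter (0.05145) and in the fit of all 18 libraries (0.289). No pair of cell lines differed in the YES1 response at the threshold, but without PC-9 nc replicate 1 EBC-1 was above PC-9 by 0.68 (adjusted p = 0.00932), and without PC-9 nc replicate 2 by 0.12 (adjusted p = 0.748), against 0.38 (adjusted p = 0.344) with all libraries. The processed pseudogene YES1P1 had at most 2 reads in a library.

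FYN, which acts beside LCK in T cells and beside SRC and YES1 elsewhere (ENSG00000010810, chr6:111660332-111873452, minus strand), was called different in its response between all 3 pairs of cell lines, of which the 2 with EBC-1 rest on a level under the filter there. FYN stood highest in PC-9, at 6.39, 5.18 and 5.69 FPKM in nc and 6.35, 6.44 and 7.22 FPKM in shSYK, with overlapping groups (log2 fold change 0.19, 95% interval -0.060 to 0.43, limma adjusted p = 0.459). In HCC827 it was low and rose, from 1.16, 1.03 and 0.714 FPKM to 2.43, 2.28 and 1.96 FPKM, or 230% of nc (log2 fold change 0.72, SE 0.12, adjusted p = 0.00369). Its nc mean there, 0.968 FPKM, was under 1 FPKM, and FYN passed the filter through its shSYK libraries. Without a filter it stayed called there (limma adjusted p = 0.0184). In EBC-1 it was lower still, at 0.734, 0.726 and 0.824 FPKM in nc and 0.140, 0.219 and 0.357 FPKM in shSYK. That is 68 to 75 reads against 17 to 36 reads per library, with no overlap and 31.4% of the nc mean left. The EBC-1 mean was under the filter, and a fit of all genes without a filter gave a log2 fold change of -0.51 (SE 0.096, adjusted p = 0.021). The FYN response in EBC-1 was below PC-9 by 0.70 (SE 0.14, adjusted p = 0.00307) and below HCC827 by 1.23 (SE 0.14, adjusted p = 1.88e-05), and PC-9 was below HCC827 by 0.53 (SE 0.14, adjusted p = 0.0331). The last of these was lost under 3 settings, a pseudocount of 0.1 (adjusted p = 0.0729), no filter (0.061) and quantile normalization (0.055), and with any of PC-9 nc replicate 3, PC-9 shSYK replicates 1 and 2, HCC827 nc replicate 3 and HCC827 shSYK replicates 1 and 2 left out (adjusted p between 0.0652 and 0.0872).

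LCK, the Src family kinase of T cells (ENSG00000182866, chr1:32251239-32286165, plus strand), was present in EBC-1 and HCC827 and fell in both. In EBC-1 it stood at 4.45, 3.25 and 3.96 FPKM in nc and at 1.85, 1.89 and 2.05 FPKM in shSYK, 49.7% of nc. In HCC827 it was 4.23, 3.72 and 3.11 FPKM in nc and 1.47, 1.86 and 1.67 FPKM in shSYK, 45.2% of nc. The groups were apart in both, with log2 fold changes of -0.73 (SE 0.11, limma adjusted p = 0.00182) and -0.81 (SE 0.11, adjusted p = 0.0016). The response of these lines differed by 0.079 (95% interval -0.24 to 0.40, adjusted p = 0.756). PC-9 had 0.471, 0.361 and 0.460 FPKM in nc and 0.143, 0.332 and 0.325 FPKM in shSYK, which is 13 to 16 reads against 6 to 14, and was under the filter. The fit of all 18 libraries called LCK in PC-9 different from EBC-1 by 0.55 (adjusted p = 0.018) and from HCC827 by 0.63 (adjusted p = 0.0179) on the log2(FPKM + 1) scale, on which a gene at the PC-9 level can move little. Each of these calls was lost under 6 of 26 alternatives, of which 5 are given here. With a pseudocount of 0.1 the adjusted p was 0.38 and 0.361, in limma-voom on the recovered reads 0.843 and 0.799, with TPM scaling 0.191 and 0.144, and with length and GC trends removed 0.151 and 0.0616. Leaving out EBC-1 nc replicate 1 gave 0.0553 for the first, and leaving out HCC827 shSYK replicate 1 gave 0.0516 for the second.

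LCK has a distal and a proximal start site about 22.9 kilobases apart, the proximal one being known from thymocytes, and gene-level FPKM cannot tell their transcripts apart. The 250 bases before each RefSeq start on GRCh38.p14 are shown because LCK, a T cell kinase, had reads in all 18 libraries of these epithelial lines. Capitals mark AGGAAG, or CTTCCT on the other strand, a core of the kind that ETS factors bind. The distal window, at chr1:32251015-32251264 on the plus strand, holds 2 and the proximal window, at chr1:32273871-32274120 on the plus strand, holds 1, and 28.7% of the 35116 windows of this length in the RefSeq table hold at least 1. This motif was chosen after the sequences had been seen, and a match is not evidence of binding. Neither window has a GC box (GGGCGG or CCGCCC), which 42.6% of all windows have.
LCK distal: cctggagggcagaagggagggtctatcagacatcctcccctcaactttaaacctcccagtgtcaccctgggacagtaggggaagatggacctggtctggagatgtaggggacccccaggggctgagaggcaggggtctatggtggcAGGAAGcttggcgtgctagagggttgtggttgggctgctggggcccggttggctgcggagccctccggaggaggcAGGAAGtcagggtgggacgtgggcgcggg
LCK proximal: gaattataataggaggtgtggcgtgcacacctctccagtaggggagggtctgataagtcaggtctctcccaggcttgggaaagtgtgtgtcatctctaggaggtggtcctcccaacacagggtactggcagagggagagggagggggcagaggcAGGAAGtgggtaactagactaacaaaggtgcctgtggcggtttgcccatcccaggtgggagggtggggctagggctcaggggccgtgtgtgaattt

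Summed over SRC, LYN, FYN, YES1 and LCK with the blood cell members FGR and BLK, which were at or near 0, Src family mRNA in EBC-1 came to 34.6 ± 0.594 FPKM in nc and 39.3 ± 1.27 in shSYK (SD, n = 3). SRC went from 28.8% to 10.5% of it, LYN from 37.1% to 51.7% and YES1 from 20.7% to 32.3%. LYN was the largest share in each EBC-1 library, in nc as well as in shSYK. In HCC827 the sum was 55.1 ± 2.49 FPKM in nc and 44.04 ± 0.386 in shSYK, and the share of SRC went from 55.8% to 47.2%, of YES1 from 12.4% to 19.4% and of FYN from 1.77% to 5.05%. In PC-9 the sum was 38.3 ± 4.21 FPKM in nc and 44.7 ± 1.23 in shSYK, with YES1 the largest share at 42.3% and 46.1%. In FPKM as deposited, the shSYK sums lay above all nc sums in EBC-1 and PC-9 and below all nc sums in HCC827. The PC-9 gap was narrow, from 42.8 FPKM in nc replicate 2 to 43.5 FPKM in shSYK replicate 3. All genes together summed to 274907 FPKM in the first of these libraries and 316917 in the second, so the PC-9 order depends on the scaling. The Src family sums and shares were not tested.

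**Figure D3:**
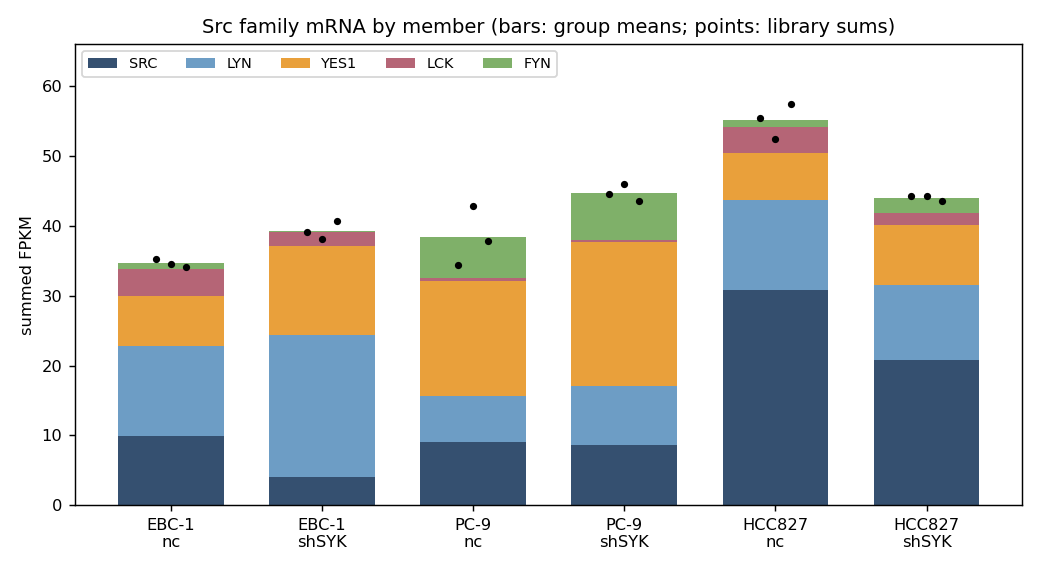
Summed FPKM of SRC, LYN, YES1, LCK and FYN in each of the 6 groups, stacked by member as means of 3 libraries, with a black point for the sum in each library. The SRC block shrinks in EBC-1 and in HCC827, where it is the largest block of nc (55.8% of the sum), and LYN is the largest block in EBC-1.

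CSK, the negative regulator of the family, was at a like level in the 3 cell lines, with overlapping nc libraries. In HCC827 it fell from 14.4, 13.0 and 15.1 FPKM to 11.8, 10.7 and 12.002 FPKM (log2 fold change -0.28, SE 0.074, limma adjusted p = 0.0219). That call was lost without nc replicate 1 (adjusted p = 0.0657), nc replicate 3 (0.0625) or shSYK replicate 2 (0.0728), with TPM scaling (0.0576), without the filter (0.0561) and in the fit of all 18 libraries (0.187). In EBC-1 it was 13.1, 11.1 and 14.0 FPKM in nc and 10.7, 11.4 and 10.7 FPKM in shSYK, with overlapping groups (log2 fold change -0.20, 95% interval -0.41 to 0.0087, adjusted p = 0.106), and -0.29 with an adjusted p of 0.013 without nc replicate 2. In PC-9 the nc libraries ranged from 12.01 to 21.4 FPKM, the highest being replicate 1, and the shSYK libraries from 12.8 to 16.8 FPKM. That change was -0.090 (95% interval -0.56 to 0.38, adjusted p = 0.895), and 0.12 (adjusted p = 0.642) without nc replicate 1. No pair of cell lines differed at the threshold in the response of CSK.

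PTK2, or FAK, which joins integrins to Src family kinases, rose by a small amount in EBC-1 and HCC827. In EBC-1 it was 11.6, 11.8 and 11.5 FPKM in nc and 14.1, 14.2 and 15.7 FPKM in shSYK (log2 fold change 0.31, SE 0.068, limma adjusted p = 0.0096). HCC827 had 5.71, 6.13 and 6.42 FPKM in nc and 7.21, 7.14 and 7.28 FPKM in shSYK (log2 fold change 0.21, SE 0.060, adjusted p = 0.0272), and this call was lost when any of the 6 libraries but nc replicate 3 was left out (adjusted p between 0.0603 and 0.0861). Without the filter on low genes the HCC827 call was lost too (adjusted p = 0.0516). In PC-9 it was 13.1, 14.9 and 14.0 FPKM in nc and 15.1, 15.7 and 15.3 FPKM in shSYK. Those groups did not overlap either, with a log2 fold change of 0.12 (adjusted p = 0.612). No pair of cell lines differed at the threshold in the response of PTK2, but without PC-9 nc replicate 1 EBC-1 was above PC-9 by 0.23 (adjusted p = 0.0434).

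PTK6 had no called change in any cell line with all libraries in the fit. It was 7.24, 6.39 and 8.23 FPKM in nc and 6.48, 5.71 and 6.29 FPKM in shSYK in EBC-1 (log2 fold change -0.21, 95% interval -0.43 to 0.019, limma adjusted p = 0.119), and -0.29 with an adjusted p of 0.0306 without nc replicate 2. In PC-9, the line with the highest PTK6, nc ranged from 13.4 to 14.1 FPKM and shSYK from 13.0 to 14.0 FPKM (log2 fold change -0.018, 95% interval -0.23 to 0.19, adjusted p = 0.957). In HCC827 nc ranged from 2.27 to 3.76 FPKM and shSYK from 3.11 to 4.35 FPKM (log2 fold change 0.20, 95% interval -0.17 to 0.56, adjusted p = 0.355). The groups overlapped in all 3 lines. The PC-9 interval is the narrowest of these.

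Over the tested members, the nc and shSYK libraries did not overlap for 6 in EBC-1, 3 in PC-9 (SYK, LYN and PTK2) and 8 in HCC827, beside 56.9%, 23.7% and 52.3% of all genes tested. SYK, the target of the shRNA, is counted in each line. With 3 libraries against 3, an exact permutation test of 1 gene cannot go below p = 0.1. Responses differed between EBC-1 and PC-9 for 3 of 9 members tested (SRC, FYN and LCK) beside 19.8% of 12672 genes, between EBC-1 and HCC827 for 4 (SYK, SRC, LYN and FYN) beside 21.8%, and between PC-9 and HCC827 for 3 (LYN, FYN and LCK) beside 7.50%. FYN in EBC-1 and LCK in PC-9 were under the filter in their own line and entered this fit through their levels in other lines. In HCC827 FYN passed the filter through its shSYK libraries, with an nc mean of 0.968 FPKM. Among members tested in both lines of a pair, differences were called for 1 of 7 between EBC-1 and PC-9 (SRC), 3 of 8 between EBC-1 and HCC827 (SYK, SRC and LYN) and 2 of 8 between PC-9 and HCC827 (LYN and FYN). These comparisons share the libraries of each cell line.

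Before any knockdown, the nc cells of each line had their own set of kinases. These levels come from separate tables, so cell line and table cannot be told apart, and the order is a description. HCC827 had 3.08 times the SRC of EBC-1, whose libraries overlapped those of PC-9. PC-9 had 5.94 times the FYN of HCC827, which overlapped EBC-1, and 2.31 times the YES1 of EBC-1, which overlapped HCC827. LCK was alike in EBC-1 and HCC827, and HCC827 had 8.57 times the level of PC-9. LYN was alike in HCC827 and EBC-1, and EBC-1 had 1.98 times the level of PC-9. PTK2 and PTK6 both followed the order PC-9, EBC-1, HCC827 with no overlap between neighbours, PTK6 falling from 13.7 to 7.29 to 3.13 FPKM. SYK followed the order EBC-1, HCC827, PC-9, at 14.2 ± 1.07, 9.08 ± 0.649 and 6.51 ± 0.698 FPKM, also with no overlap. PC-9, the line with the least SYK and LYN, was thus the line with the most YES1, FYN, PTK2 and PTK6.

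The 3 kinases that rose in EBC-1 were those with the lowest GC content. The GC content of the longest annotated transcript was 37.7% for YES1, 45.1% for PTK2 and 45.6% for LYN. It was 49.9% for SYK, 57.6% for PTK6, 58.4% for LCK, 59.3% for SRC and 63.4% for CSK, with a median of 49.1% over the genes tested. FYN, which rose in HCC827, has 48.4%. When lowess trends on the length and the GC content of genes were taken out of the log2 values, library by library, in a step added after the data had been seen, PTK2 in EBC-1 was no longer called (0.084, limma adjusted p = 0.256). In HCC827, 3 calls were lost too, YES1 (0.16, adjusted p = 0.169), PTK2 (0.11, adjusted p = 0.235) and CSK (-0.073, adjusted p = 0.367). SRC stayed called in EBC-1 (-0.89, adjusted p = 0.000177) and HCC827 (-0.36, adjusted p = 0.0021), and so did LCK (-0.46, adjusted p = 0.00636, and -0.60, adjusted p = 0.0102). LYN (0.53, adjusted p = 0.000296) and YES1 (0.42, adjusted p = 0.00311) stayed called in EBC-1, and FYN in HCC827 (0.72, adjusted p = 0.00357). LYN was then also called in PC-9 (0.32, adjusted p = 0.0428) and in HCC827 (-0.27, adjusted p = 0.0376), in opposite directions. The part of base composition in these results was not tested beyond this.

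**Figure D4:**
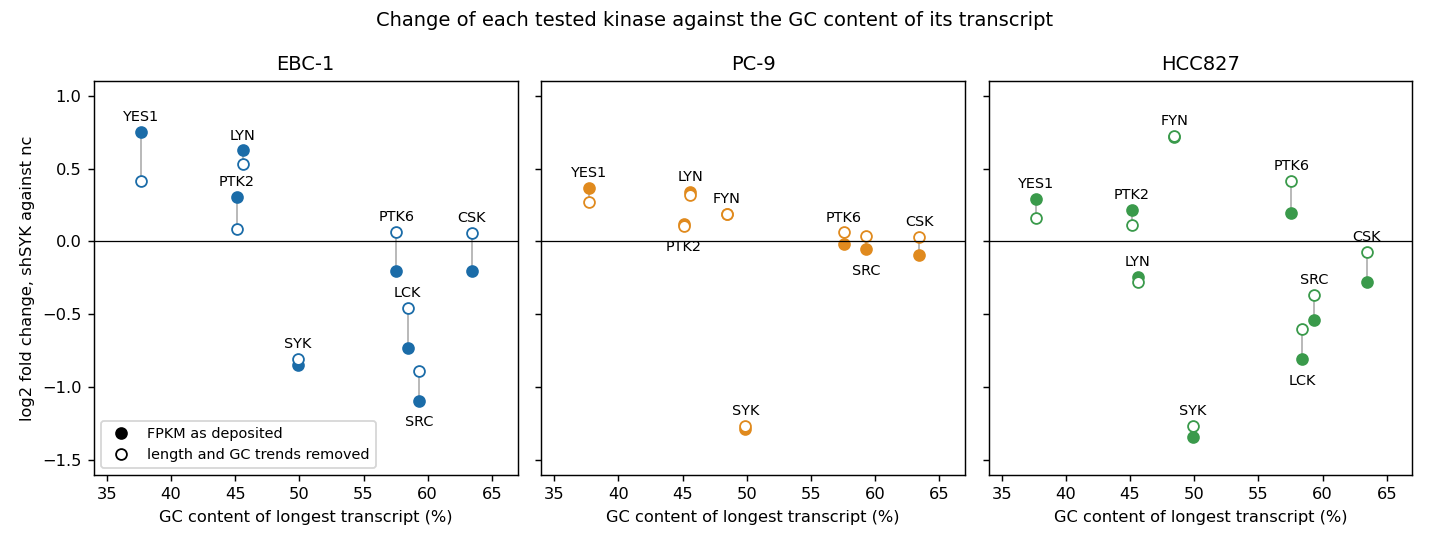
Log2 fold change of FPKM + 1, shSYK against nc, of each tested kinase against the GC content of its longest transcript in percent, in a panel per cell line, with filled points for the values as deposited and open points after removing length and GC trends within each library. In EBC-1 the open points of YES1, PTK2, LCK, SRC, PTK6 and CSK lie nearer 0 or across it, while those of SYK move little (-0.85 to -0.81).

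The genes whose pattern over the 6 group means was most like that of SYK were ATP5J2, a subunit of ATP synthase, MLEC, a lectin of the endoplasmic reticulum, and BMF, a BH3-only promoter of cell death. Likeness was the root mean square difference of the centred log2(FPKM + 1) means, among 6690 protein-coding genes with a mean of at least 5 FPKM. It was 0.22 for ATP5J2, 0.25 for MLEC and 0.26 for BMF, against a median of 0.89. ATP5J2 went from 89.4 to 64.0 FPKM in EBC-1, from 56.8 to 25.1 FPKM in PC-9 and from 97.0 to 32.8 FPKM in HCC827. MLEC went from 103.6 to 71.4, from 49.0 to 32.3 and from 85.3 to 38.3 FPKM in the same order. BMF went from 17.9 to 7.99 FPKM in EBC-1, from 6.23 to 2.82 FPKM in PC-9 and from 15.6 to 4.73 FPKM in HCC827.

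Of 86 further genes listed around these kinases, as related kinases, regulators, receptors, substrates and partners, 32 were under the filter in every cell line. In EBC-1, 45 were tested, 12 were higher and 16 lower in shSYK, or 62.2% called beside 44.7% of all genes tested, with a median log2 fold change of 0.019. FER, among those higher, passed the filter through its shSYK libraries, with an nc mean of 0.873 FPKM. In HCC827, 44 were tested, 8 were higher and 10 lower, or 40.9% beside 38.0%, with a median of 0.032. In PC-9, 48 were tested and 1 was higher, or 2.08% beside 2.09%, with a median of 0.025. That gene, UBASH3B (Sts-1), a phosphatase that removes the activating phosphates of SYK and ZAP70, was the member of the list called in the same direction in all 3 lines. It rose from 1.42 ± 0.129 to 2.54 ± 0.139 FPKM in EBC-1 (log2 fold change 0.55, limma adjusted p = 0.00295), from 12.04 ± 0.823 to 19.6 ± 0.592 in PC-9 (0.66, adjusted p = 0.0219) and from 7.56 ± 0.432 to 11.2 ± 1.85 in HCC827 (0.50, adjusted p = 0.0101). The PC-9 call was lost, leaving 0 listed genes called there, when nc replicate 3 or any shSYK replicate was left out and when no filter was used.

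Among the Src-related and Tec kinases on the list, 6 were tested in EBC-1, with 2 higher and 2 lower, and 5 in HCC827, with 1 of each, or 66.7% and 40.0% called beside 44.7% and 38.0% of all genes tested. FER, among those higher in EBC-1, passed the filter through its shSYK libraries. It had a mean of 0.873 FPKM in nc and 1.42 FPKM in shSYK (limma adjusted p = 0.0488). PTK2B (PYK2), the close relative of FAK, fell from 13.5 ± 0.336 to 7.68 ± 0.619 FPKM in EBC-1 (log2 fold change -0.74, limma adjusted p = 0.000449) and from 7.44 ± 0.994 to 3.76 ± 0.309 FPKM in HCC827 (-0.82, adjusted p = 0.00108). FAK rose in the same lines, but neither rise was called with length and GC trends removed (adjusted p = 0.256 and 0.235). SRMS, a relative of PTK6, fell from 5.13 to 2.25 FPKM in EBC-1 (-0.90, adjusted p = 0.00223), and FRK, another Src-related kinase, rose from 1.91 to 2.83 FPKM (0.40, adjusted p = 0.0105). ABL2 rose in HCC827 from 4.47 to 5.82 FPKM (0.32, adjusted p = 0.0164).

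Of the regulators of the kinases, 5 were higher and 4 lower of 11 tested in EBC-1, beside 23.1% and 21.6% of all genes, and 3 were higher and 3 lower of 11 in HCC827, beside 17.2% and 20.7%. PAG1, the membrane adaptor that holds CSK near Src family kinases, rose from 1.38 ± 0.150 to 3.02 ± 0.267 FPKM in EBC-1 (log2 fold change 0.76, limma adjusted p = 0.00107). SRCIN1 (p140Cap), an adaptor that restrains SRC, fell there from 5.27 ± 0.0748 to 1.92 ± 0.450 FPKM (-1.11, adjusted p = 0.000579), and the receptor phosphatase PTPRJ from 30.9 to 19.6 FPKM (-0.63, adjusted p = 0.000488). In HCC827 the phosphatase PTPN6 (SHP-1) fell from 14.8 to 10.5 FPKM (-0.46, adjusted p = 0.00179) and the ubiquitin ligase CBLC from 23.6 to 17.1 FPKM (-0.44, adjusted p = 0.00915). PTPN6 was also lower in EBC-1, from 15.9 to 10.5 FPKM (-0.56, adjusted p = 0.00122). PTPRJ was also lower in HCC827, from 6.51 to 5.52 FPKM (-0.21, adjusted p = 0.0486).

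Of the 11 ITAM receptors and adaptors listed, none passed the filter in EBC-1 and 1 passed in each of the other lines. CD79A, the signalling chain of the B cell receptor, was the one in HCC827 and rose from 1.18 ± 0.285 to 4.24 ± 0.938 FPKM (log2 fold change 1.26, limma adjusted p = 0.00105). The B cell marker MS4A1 was at 0 in every HCC827 library. Of the 8 blood cell markers, 5 had no read in any nc library and 5 in any shSYK library of HCC827, and the list summed to between 1.48 and 2.93 FPKM in nc and between 3.69 and 5.996 in shSYK. CD79A, itself on that list, made up most of the shSYK sum. CLEC7A, a receptor with a single such tyrosine motif, was the one in PC-9, at 1.35 ± 0.138 FPKM in nc and 0.879 ± 0.225 in shSYK (-0.33, adjusted p = 0.293).

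Substrates of SYK and ZAP70 had 3 higher and 2 lower of 8 tested in EBC-1, and 3 lower of 8 in HCC827, or 62.5% and 37.5% called beside 44.7% and 38.0% of all genes tested. VAV2, a guanine nucleotide exchange factor, went in opposite directions, rising from 16.5 to 25.1 FPKM in EBC-1 (log2 fold change 0.58, limma adjusted p = 0.00166) and falling from 25.2 to 19.0 FPKM in HCC827 (-0.39, adjusted p = 0.00157). Its relative VAV1 fell in EBC-1 from 9.80 to 6.29 FPKM (-0.56, adjusted p = 0.0013), as did the phospholipase PLCG1 from 13.4 to 10.6 FPKM (-0.31, adjusted p = 0.0108). In HCC827 the adaptors LAT2 (-0.57, adjusted p = 0.00427) and PIK3AP1 (-0.34, adjusted p = 0.037) fell, both from under 3 FPKM.

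Focal adhesion partners of FAK had 1 higher and 8 lower of 17 tested in EBC-1 and 2 higher and 3 lower of 16 in HCC827, or 52.9% and 31.2% called beside 44.7% and 38.0% of all genes tested. The adaptor CRK rose in both, from 15.2 to 23.5 FPKM (log2 fold change 0.60, limma adjusted p = 0.000854) and from 24.7 to 30.9 FPKM (0.31, adjusted p = 0.00606). GRB7, an adaptor that binds FAK and ErbB receptors, fell in both, from 16.5 to 11.3 FPKM (-0.52, adjusted p = 0.00284) and from 22.1 to 14.0 FPKM (-0.62, adjusted p = 0.00143). TGFB1I1 (HIC-5) fell in EBC-1 (-0.51, adjusted p = 0.00903). TLN1, the integrin activator talin, fell in EBC-1 (-0.45, adjusted p = 0.00301) and in HCC827 (-0.45, adjusted p = 0.00127). Of the 6 PTK6 partners, 3 were tested in each line and 1 rose in each of EBC-1, the splicing factor SFPQ (0.35, adjusted p = 0.00502), and HCC827, the RNA-binding protein KHDRBS3 (0.61, adjusted p = 0.00529). GC content of the named list genes ran from 37.2% for KHDRBS3, which rose, to 65.1% for SRMS, which fell, but CD79A rose with 60.1%. The part of GC content in the changes of single list genes was not tested.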

How the data were processed

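RNA of 18 libraries was sequenced. The authors deposited FPKM for 58302 Ensembl genes in a table per cell line. According to the methods, RNA was extracted with TRIzol, sequenced on Illumina HiSeq instruments and mapped to hg38, and the submitters' processing notes name HISAT2 and CASAVA without versions. The counting program, the annotation release and the FPKM denominator are not given in the sources used here, nor is the handling of reads shared between paralogs. Multiplied by the length of its gene, each FPKM was an integer number of steps of 1 size per library (100% of values within 0.05 of an integer), which returned the reads on each gene. Library depth was between 7920099 and 15729103 reads on genes, and read numbers cover counting error only.

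Each cell line was fitted alone with limma 3.58.1 (R 4.3.3), taking log2(FPKM + 1) as input, with a variance trend and Benjamini-Hochberg adjustment over genes with a mean of at least 1 FPKM. Responses were compared between cell lines as differences of contrasts in a fit of all 18 libraries, and both fits were tested on simulated data. Alternatives were limma-voom on recovered reads, a replicate block, TPM scaling, quantile normalization, the filter left off or set at 5 FPKM, a pseudocount of 0.1, the variance trend left off, all 18 libraries in 1 fit, leaving out each library and, added after the data had been seen, removal of length and GC trends (lowess, GENCODE v44 transcripts). The kinases and all lists were chosen with earlier results of these data known. Besides the kinases, the text names up to 3 called genes of each list and cell line by largest change, without overlap between groups and with a mean of at least 1 FPKM, genes called alike in all lines, the 3 genes most like SYK, and markers. CD3E, ITGAM, MS4A1, CLEC7A and FER were named after their values were seen. TLN1 and PTPN6 in EBC-1 and PTPRJ in HCC827 were given in the same way. A marker and a Src family gene are not reported here. Promoter windows came from a RefSeq table (GRCh38.p14) that held 6 of the 10 kinases. Plots were made with matplotlib 3.10.9.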

Additional observations from a re-analysis of the deposited data

Results flagged for a closer look

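The response to SYK knockdown differed between cell lines for 10 pairings of a kinase with 2 cell lines, each tested as a difference of log2 fold changes in the limma fit of all 18 libraries. Between EBC-1 and PC-9 the difference was -1.04 for SRC, -0.70 for FYN and -0.55 for LCK. Between EBC-1 and HCC827 it was 0.49 for SYK, -0.55 for SRC, 0.86 for LYN and -1.23 for FYN. Between PC-9 and HCC827 it was 0.58 for LYN, -0.53 for FYN and 0.63 for LCK. For FYN between EBC-1 and HCC827 the directions are opposite, down in EBC-1 and up in HCC827 in all 3 shSYK libraries of each against every nc library. For LYN between the same lines the directions are also opposite, without overlap in either, although the change within HCC827 passed the threshold in the fit of all 18 libraries (adjusted p = 0.0402) and not in that of HCC827 alone (0.0535). FYN in EBC-1 was under the filter of that line, and in HCC827 it passed the filter through its shSYK libraries. Both LCK differences involve PC-9, where LCK had at most 16 reads in a library.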

How the results depend on the processing

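Of 52 results on single kinases (changes within a line and differences between lines), 24 were called. All 24 kept their sign under every alternative run, and 14 stayed called under every one. Of the 28 others, 18 were called under no alternative and 13 turned sign under at least 1. The cause of these changes was not tested. Low kinases limit what depth can show: LCK in PC-9 had at most 16 reads and ZAP70 at most 1.

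Leaving out 1 library at a time moved the SYK change in PC-9 between -1.35 and -1.18, with 2 calls lost. It moved the number of kinases called between 6 and 8 in EBC-1 (6 with all), 0 and 1 in PC-9 (1 with all) and 4 and 6 in HCC827 (7 with all), and the number with a different response between 2 and 5 for EBC-1 against PC-9 (3 with all), 2 and 4 for EBC-1 against HCC827 (4) and 1 and 4 for PC-9 against HCC827 (3). The number of listed partner genes called lay between 19 and 27 in EBC-1 (28 with all), 0 and 1 in PC-9 (1) and 14 and 18 in HCC827 (18). Kinases called in PC-9 numbered 0 with a filter at 5 FPKM, where SYK was not tested, and 2 in the fit of all 18 libraries or with length and GC trends removed. In HCC827 they numbered 4 without a filter. Different responses numbered 2 for EBC-1 against HCC827 without a filter and 1 for PC-9 against HCC827 with a pseudocount of 0.1. Partner genes called in PC-9 numbered 3 with TPM scaling, with trends removed or in limma-voom, 6 in the fit of all 18 libraries, 2 after quantile normalization and 0 without a filter.

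Results that turned sign were all uncalled before and after. With length and GC trends removed they were PTK6 (0.067) and CSK (0.056) in EBC-1, SRC (0.040), PTK6 (0.063) and CSK (0.029) in PC-9, PTK2 (-0.013), PTK6 (0.014) and CSK (0.035) for EBC-1 against PC-9, and PTK2 (-0.027) for EBC-1 against HCC827. TPM scaling turned the differences of CSK for EBC-1 against PC-9 (0.036) and of SYK (-0.092) and YES1 (-0.017) for PC-9 against HCC827. Limma-voom turned the last 2 as well (-0.13 and -0.027), and a pseudocount of 0.1 turned SYK (-0.025). Leaving out 1 library at a time gave, in PC-9, values from -0.18 to 0.078 for SRC, -0.044 to 0.0074 for PTK6 and -0.27 to 0.12 for CSK. The differences then ranged from -0.32 to 0.074 for CSK in EBC-1 against PC-9, from -0.018 to 0.17 for LCK and -0.0099 to 0.14 for CSK in EBC-1 against HCC827, and from -0.043 to 0.17 for SYK and -0.22 to 0.35 for YES1 in PC-9 against HCC827.

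The replicate numbers did not pair the libraries, since the correlation of same-numbered deviations lay between -0.2195 and 0.3254 and was over 0.1 in 1 of 9 pairs. With the replicate block, the kinases called stayed at 6, 1 and 7 in EBC-1, PC-9 and HCC827, different responses numbered 3, 5 and 2 against 3, 4 and 3, with LCK lost against PC-9 in both pairs (adjusted p = 0.0502 for EBC-1 and 0.0621 for HCC827), SYK gained for EBC-1 against PC-9 (0.0475) and PTK6 for EBC-1 against HCC827 (0.032), and partner genes called numbered 20, 1 and 18.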
